A study of Canis lupus familiaris with 27 samples.

Results

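The genes described here are the canine members of 6 families of pre-mRNA splicing factors, chosen by name: every gene whose symbol on the platform begins with HNRNP, SRSF, SF3A, SF3B, SNRP or LSM followed by a letter or digit. Of 15115 genes with a symbol of their own, 61 met the rule (17 HNRNP, 15 LSM, 11 SRSF, 9 SNRP, 6 SF3B and 3 SF3A genes), measured by 146 of 42860 probe sets. LSMEM1 and LSMEM2 met it by their letters alone, being membrane proteins by name, and 59 genes remained without them. Another 14 probe sets carry the symbol of a member together with another symbol and were not used. HNRNPA1, HNRNPK, SNRPD2, SNRPD3 and SNRPG, which belong to the same families, were not analysed here.

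RNA came from 27 snap-frozen, macrodissected canine simple mammary carcinomas with invasive growth, each on its own Affymetrix array. The 13 metastatic tumors had lymph node metastases at resection, and the 14 non-metastatic tumors had none and were selected for high grade and large diameter. The dogs were 9 to 16 years old in the metastatic group and 9 to 15 in the other, were of several breeds, and carried spontaneous tumors without any experimental treatment. The labels put 6 metastatic and 5 non-metastatic tumors in grade II, and 7 and 9 in grade III. Non-metastatic tumor 1 is of grade II in the labels, used here, and of grade III in the clinical table of the study. The tumors measured 2.42 ± 1.32 cm (SD, n = 13) and 5.21 ± 3.53 cm (SD, n = 14), and non-metastatic tumor 12 came from a dog that later developed lung metastases. Tumors are bulk tissue, in which fewer cells of a type and less RNA per cell cannot be told apart.

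Pre-mRNA splicing is carried out by the spliceosome, which assembles on each intron from small nuclear ribonucleoproteins (snRNPs). The U1 snRNP recognises the 5′ splice site, the U2 snRNP with its SF3A and SF3B subcomplexes binds the branch site, and the Sm and LSM rings hold the small nuclear RNAs. SR proteins and hnRNPs bind the transcript and favour or repress the use of exons, and many of them limit their own amount by splicing their transcripts into forms that are degraded.

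The values are log2 array signals as deposited, with a median of 3.66 over all probe sets and tumors. Several measures other than splicing genes differed between the groups or leaned one way, beside every result below. Metastatic tumors had an upper quartile of the array of 7.93 ± 0.04 (SD, n = 13) and non-metastatic tumors one of 7.76 ± 0.15 (SD, n = 14; two-sided permutation test, p = 1.70e-04), and the 3′ to 5′ difference of the GAPDH control probe sets, a sign of RNA quality, was 1.84 ± 0.32 and 1.32 ± 0.42 (p = 0.00180). That of the actin control probe sets leaned the other way, at 1.04 ± 0.41 and 1.26 ± 0.54 (same test, p = 0.247), so the 2 controls differed in direction. Of 18 measured proliferation genes 14 were higher, with a mean level per tumor of 7.14 to 10.5 in metastatic and 5.51 to 9.03 in non-metastatic tumors. Of 8 smooth muscle and myoepithelial markers 4 were lower, with a mean level of 7.01 to 9.61 against 7.85 to 11.1. None of the 7 measured epithelial markers passed the test, although 7 of 7 differences lay above 0, with a median of 0.46. Their mean level was 8.39 to 12.5 against 6.50 to 12.3, well above the median of all values. Of the markers of other cells, 1 of 8 macrophage genes was higher (8 of 8 differences above 0, median 0.81; mean level 7.31 to 9.89 in metastatic against 6.01 to 9.51 in non-metastatic tumors), and 1 of 8 endothelial genes was higher and 1 lower (7 of 8 above 0, median 0.52; 5.73 to 8.09 against 5.67 to 6.86). None of the fibroblast (10 of 10 above 0, median 0.66; 9.27 to 13.2 against 7.15 to 12.1), T cell (7 of 8, median 0.72; 3.99 to 8.33 against 3.502 to 8.13), B and plasma cell (5 of 6, median 0.44; 3.98 to 7.11 against 4.19 to 5.11) or adipocyte genes (3 of 6, median -0.0071; 4.74 to 8.22 against 4.34 to 6.91) passed. The names of 11 metastatic and 0 non-metastatic samples end in the letter T, so a difference in handling, if the letter marks one, and the lymph node status cannot be told apart. The upper quartile, GAPDH, proliferation and smooth muscle measures were each used as a covariate below, and the part of the other markers in the differences was not tested.

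The first question was how the splicing families differed between metastatic and non-metastatic tumors. The U1 proteins SNRPA and SNRPC, the U2 proteins SNRPA1 and SNRPB2 and the Sm protein SNRPE were higher in metastatic tumors. So were 4 proteins of the LSM ring around U6, the SF3B subunits SF3B4, SF3B5 and SF3B6, and SRSF3, HNRNPC, HNRNPH2 and HNRNPAB. Lower were 4 SR proteins, the SF3B subunits SF3B1 and SF3B2, SF3A2 and HNRNPA0. The brightest probe set stood for each gene and was tested with limma over all genes at a Benjamini-Hochberg adjusted p under 0.05. Of the 61 genes 16 were higher and 8 lower, or 26.2% and 13.1%, against 10.4% and 6.83% of all genes. The median log2 difference, metastatic minus non-metastatic, was 0.14 over the 61 genes and -0.0019 over all genes. The splicing genes were bright, with a median mean level of 11.0 against 5.19, and among the 8765 genes above the median brightness 18.7% were higher and 6.62% lower, with a median difference of 0.18 against 0.17 for the 56 splicing genes there. Of these 56 genes 15 were higher and 7 lower. When the arrays were quantile-normalized again the split turned to 7 higher and 10 lower, and centring the arrays on their medians gave 18 and 6. The first step called 962 of all genes higher and 952 lower, and the second 1808 and 629. After the first step the median difference was 0.0086 over the 61 genes and 0.0087 over all genes. The values of the groups overlapped for all 61 genes, while 0.0595% of all genes had groups that did not overlap.

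**Figure D1:**
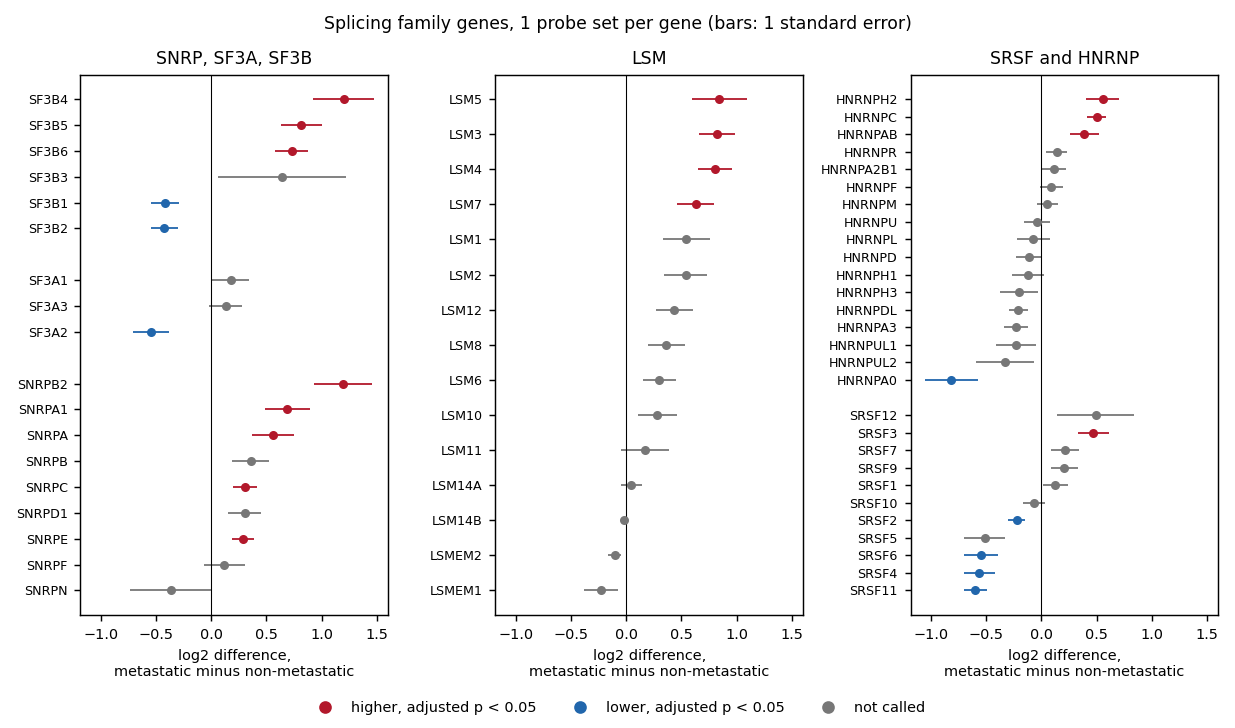
Log2 difference between metastatic (n = 13) and non-metastatic (n = 14) tumors for each of the 61 splicing family genes (points, with bars of 1 standard error), ordered within families. Red points are the 16 genes called higher, blue points the 8 called lower and grey points the 37 not called; the LSM and SNRP genes lie mostly right of 0.

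Of 9 SNRP genes, which code for core proteins of the snRNPs, 5 were higher and 0 lower, with a median difference of 0.31. After further quantile normalization 1 was higher, with a median of 0.17, and without single tumors 2 to 5 were. SNRPB2, a U2 protein that binds a stem loop of the U2 RNA, ranged from 5.59 to 8.36 with a median of 6.80 in metastatic tumors and from 5.19 to 7.39 with a median of 5.71 in non-metastatic tumors. The lowest metastatic tumor lay among the non-metastatic ones, and 5 metastatic tumors lay above all of those. The difference was 1.19 (SE 0.26, adjusted p = 0.00388), or 2.29-fold. SNRPA1, its partner in the U2 snRNP, was higher by 0.69 (SE 0.20, adjusted p = 0.0199), with 7 metastatic tumors above every non-metastatic one. Of the U1 proteins, SNRPA, the counterpart of SNRPB2 on the U1 RNA, was higher by 0.56 (SE 0.19, adjusted p = 0.0393) and SNRPC, which contacts the 5′ splice site, by 0.31 (SE 0.11, adjusted p = 0.0455).

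The Sm core, the ring of proteins common to the snRNPs, passed the test with 1 of 5 measured genes. SNRPE was higher by 0.29 (SE 0.10), at an adjusted p of 0.04996. SNRPB, the brightest SNRP gene not called, differed by 0.36 (SE 0.17, adjusted p = 0.131), SNRPD1 by 0.30 (adjusted p = 0.150) and SNRPF by 0.12 (adjusted p = 0.665). SNRPN, an imprinted Sm gene best known from neurons, differed by -0.37 (SE 0.37, adjusted p = 0.500). Its spread was uneven: metastatic tumors 8 and 12 measured 7.36 and 8.51, and the other 25 tumors lay between 10.8 and 12.2, a pattern noticed after the values were seen. The calls of SNRPA, SNRPC and SNRPE were close to the threshold, since leaving out single tumors raised their adjusted p to at most 0.0691, 0.0722 and 0.0873.

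Of 15 LSM genes 4 were higher and 0 lower. All 4 code for proteins of the ring that binds the 3′ end of the U6 RNA, LSM2 to LSM8. In this ring 7 of 7 genes had a difference above 0, with a median of 0.63. After further quantile normalization 7 of 7 lay above 0 as well, with a median of 0.49, and 2 passed. LSM4 ranged from 8.85 to 10.5 with a median of 9.62 in metastatic tumors and from 8.22 to 9.63 with a median of 8.79 in non-metastatic tumors. All 13 metastatic tumors lay above the non-metastatic median and 6 above every non-metastatic tumor. The difference was 0.80 (SE 0.15, adjusted p = 0.00147). LSM3 ranged from 10.5 to 12.3 (median 11.7) against 10.1 to 11.5 (median 10.7), a difference of 0.82 (SE 0.16, adjusted p = 0.00192), and 9 metastatic tumors exceeded all others.

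LSM5 was higher by 0.84 (SE 0.25, adjusted p = 0.0225), in 13 of 13 metastatic tumors against the non-metastatic median, and LSM7 by 0.63 (SE 0.17, adjusted p = 0.0118), in 11 of 13. LSM2 at 0.54 (adjusted p = 0.0547), LSM8 at 0.36 (adjusted p = 0.119) and LSM6 at 0.30 (adjusted p = 0.152) did not pass. Outside the U6 ring none of 6 LSM genes passed at the brightest probe set. As the mean of all probe sets 2 of 6 were higher, against 5 of 7 in the ring. At the probe set of largest variance 3 of 6 were higher, against 6 of 7. LSM1, which takes the place of LSM8 in the cytoplasmic ring of mRNA decay, differed by 0.54 (SE 0.21, adjusted p = 0.0729), and LSM10, a protein of the U7 snRNP of histone mRNA processing and the brightest LSM gene not called, by 0.28 (adjusted p = 0.258). LSMEM1 and LSMEM2 were dim, with all tumors between 2.47 and 4.89.

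**Figure D2:**
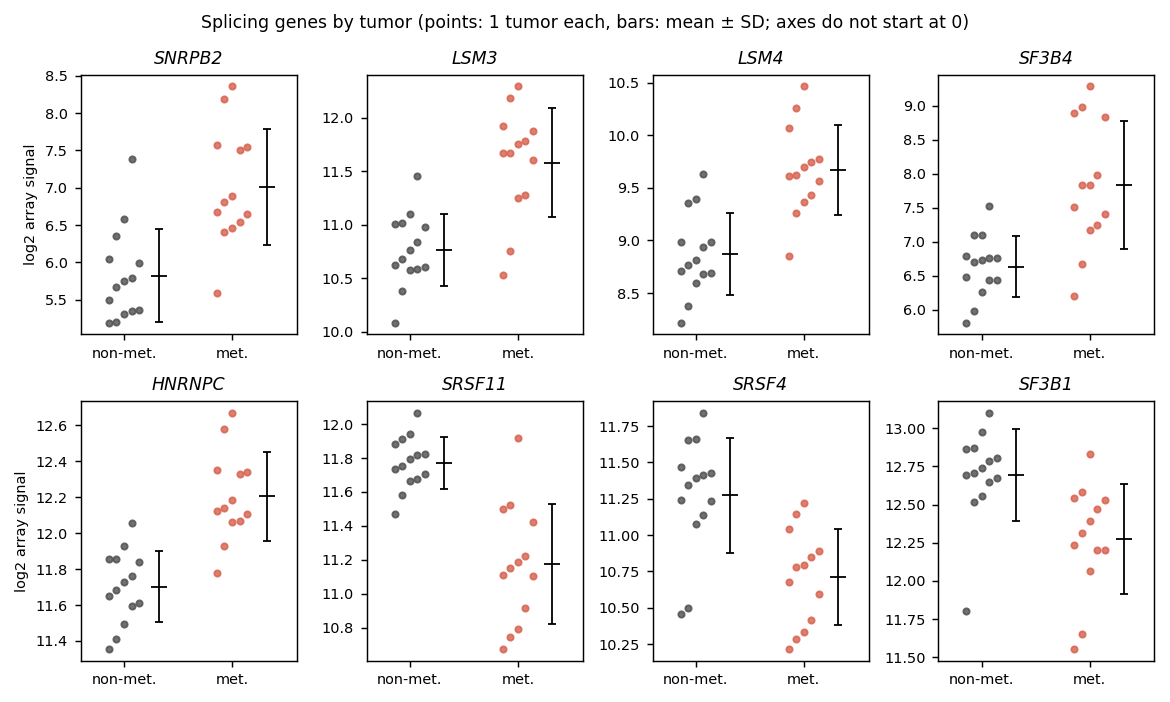
Log2 array signal of 8 splicing genes in each tumor (1 point per tumor; 14 non-metastatic in grey, 13 metastatic in red; bars show mean ± SD; vertical axes do not start at 0). SNRPB2, LSM3, LSM4, SF3B4 and HNRNPC sit higher and SRSF11, SRSF4 and SF3B1 lower in metastatic tumors, with overlap of the groups in every panel.

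The SF3B complex, which holds the branch site in the U2 snRNP, had 5 of 6 genes called, in both directions. SF3B4 ranged from 6.20 to 9.28 with a median of 7.83 in metastatic and from 5.81 to 7.52 with a median of 6.71 in non-metastatic tumors. The metastatic values spread widely, from within the non-metastatic range to well above it, where 7 tumors lay. The difference was 1.20 (SE 0.28, adjusted p = 0.00483), or 2.30-fold. SF3B5, a small subunit, was higher by 0.82 (SE 0.19, adjusted p = 0.00482), and SF3B6, which lies against the branch point, by 0.73 (SE 0.15, adjusted p = 0.00211). For both, 13 of 13 metastatic tumors exceeded the median of the non-metastatic ones.

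SF3B1, the large scaffold of the complex and a gene often mutated in human leukemias, ranged from 11.6 to 12.8 (median 12.3) in metastatic and from 11.8 to 13.1 (median 12.7) in non-metastatic tumors. Only 1 metastatic tumor lay above the non-metastatic median and 2 lay below every non-metastatic tumor. The difference was -0.42 (SE 0.13, adjusted p = 0.0228). SF3B2 was lower at -0.43 (SE 0.12, adjusted p = 0.0196). Its other 3 probe sets lay between 0.05 and 0.17, without a call. SF3B3 was dim at its brightest probe set, with medians of 2.33 and 2.27, and differed by 0.64 (SE 0.58, adjusted p = 0.447). Its other, dimmer probe set differed by -0.27 and was called lower in the fit of all probe sets. In the SF3A complex, which joins SF3B in the U2 snRNP, SF3A2 was lower at -0.55 (SE 0.17, adjusted p = 0.0266), in 8 metastatic tumors below all non-metastatic ones, and SF3A3 differed by 0.13 (adjusted p = 0.547).

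Of 11 SRSF genes, the SR proteins that bind exonic enhancers, 1 was higher and 4 were lower. SRSF11 ranged from 10.7 to 11.9 with a median of 11.2 in metastatic and from 11.5 to 12.1 with a median of 11.8 in non-metastatic tumors. The non-metastatic tumors were tightly grouped, and 10 metastatic tumors lay below all of them. The difference was -0.60 (SE 0.10, adjusted p = 6.51e-04). SRSF4 ranged from 10.2 to 11.2 (median 10.8) against 10.5 to 11.8 (median 11.4), and all 13 metastatic tumors lay below the non-metastatic median, although 2 non-metastatic tumors were among the low ones. Its difference was -0.56 (SE 0.14, adjusted p = 0.00738).

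SRSF6 was lower at -0.55 (SE 0.15, adjusted p = 0.0159), with 8 metastatic tumors below all others, and SRSF2 at -0.22 (SE 0.08, adjusted p = 0.0444). SRSF2 lost its call when single tumors were left out, with an adjusted p of up to 0.0697. SRSF3, the smallest SR protein and one also linked to mRNA export, was higher by 0.47 (SE 0.14, adjusted p = 0.0208). SRSF5 at -0.51 (adjusted p = 0.0550) and SRSF7, the brightest SR gene not called, at 0.22 (adjusted p = 0.243) did not pass. SRSF1, the best known of the family, differed by 0.13 (SE 0.11, adjusted p = 0.443).

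Of 17 HNRNP genes, the packaging proteins of nascent transcripts, 3 were higher, 1 lower and 13 not called, shares of 17.6% and 5.88%. HNRNPC, which binds uridine tracts and keeps cryptic exons from being used, ranged from 11.8 to 12.7 with a median of 12.1 in metastatic and from 11.4 to 12.1 with a median of 11.7 in non-metastatic tumors. All 13 metastatic tumors lay above the non-metastatic median and 11 above every non-metastatic tumor. The difference was 0.50 (SE 0.09, adjusted p = 6.32e-04). HNRNPH2, a binder of guanine tracts, was higher by 0.55 (SE 0.15, adjusted p = 0.0137) and HNRNPAB by 0.39 (SE 0.13, adjusted p = 0.0428). HNRNPAB lost its call when single tumors were left out, with an adjusted p of up to 0.0719. HNRNPA0 was lower at -0.82 (SE 0.24, adjusted p = 0.0208), but its only probe set was dim, at 2.69 to 4.22 against 2.80 to 5.54.

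The second question was whether the probe sets of a gene differed alike. Of the 61 genes 48 had several probe sets. Over all probe sets 38 were higher and 19 lower, against backgrounds of 9.76% and 11.4% of all probe sets, and no gene had both a higher and a lower one. In 34 of the 48 genes all probe sets differed in 1 direction, in 7 genes (HNRNPAB, HNRNPC, LSM3, LSM4, SF3B5, SF3B6 and SNRPE) every probe set was called in the same direction, in 23 genes some were called and some not, and in 18 none was. For 15 genes the representative probe set was not called in the fit of genes and another one was called in the fit of probe sets.

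Whether probe sets of a gene disagreed was tested on their difference within each tumor. Of 85 pairs, each formed by the representative and another probe set of the gene, 36 were called, or 42.4%, in 26 genes, against 24.0% of 14139 pairs of all genes. In 15 of the 36 called pairs, or 41.7%, the probe sets differed in opposite directions, close to the 41.2% of the called pairs of all genes. Of all 85 pairs these were 17.6%, against 9.88% of all pairs. Among pairs with both probe sets above the median brightness 32 of 73 were called, or 43.8%, against 27.4%. Probe sets whose name ends in s_at or x_at may by design bind several transcripts, and among pairs free of such endings and of a_at 6 of 14 were called, against 24.2% of all such pairs. Within groups the correlation across tumors had a median of 0.62 over the member pairs and 0.61 over all pairs, and of 0.67 and 0.79 where both probe sets were above the median brightness, as a description over 27 tumors that share their arrays.

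HNRNPA2B1, which packages transcripts and sorts RNA in the cytoplasm, showed the widest split. Its representative CfaAffx.5250.1.S1_s_at ranged from 13.2 to 14.5 (median 14.0) in metastatic and from 13.4 to 14.2 (median 13.8) in non-metastatic tumors, a difference of 0.12 (SE 0.11, adjusted p = 0.431 over probe sets). Probe set Cfa.10247.2.S1_at ranged from 8.33 to 10.5 (median 9.67) against 10.3 to 11.9 (median 11.5), a difference of -1.66 (SE 0.23, adjusted p = 7.59e-05). At this probe set 11 metastatic tumors lay below every non-metastatic tumor, whereas at the representative the groups lay almost on top of each other.

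The difference between both probe sets within a tumor was -5.41 to -3.54 in the metastatic group and -3.38 to -1.81 in the non-metastatic group, and the ranges did not overlap. It differed between the groups by -1.77 (SE 0.21, adjusted p = 5.89e-06). No other pair of a splicing family gene had ranges apart, and the share of such pairs over all genes was not counted. Cfa.10247.1.S1_at at -1.02 and Cfa.10247.3.S1_at at -1.45 were lower as well, and CfaAffx.5246.1.S1_s_at differed by 0.35 (adjusted p = 0.276). All 3 lower probe sets passed the stricter thresholds of the study (0.001, 1.7-fold change), applied here to the adjusted p of limma. Which part or form of the transcript each probe set binds was not examined here.

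**Figure D3:**
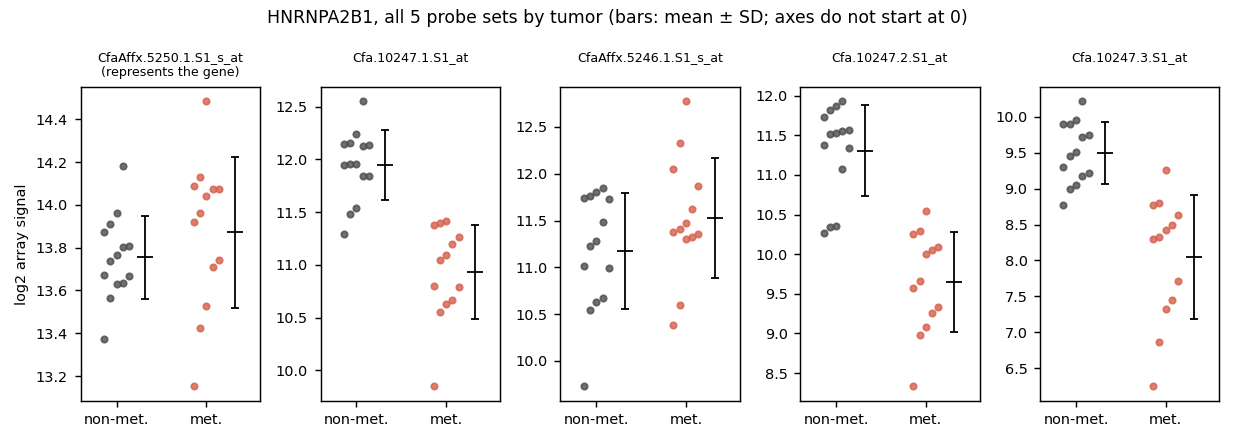
Log2 array signal of the 5 probe sets of HNRNPA2B1 in each tumor (1 point per tumor; 14 non-metastatic in grey, 13 metastatic in red; bars show mean ± SD; vertical axes differ and do not start at 0). 3 of the probe sets sit lower in metastatic tumors, and the other 2 show no called difference.

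At the thresholds of the study 2 member probe sets were higher and 4 lower, against 0.597% and 0.590% of all probe sets. Leaving out single tumors moved their number of 6 to between 2 and 10, the highest without non-metastatic tumor 8 or 12. The fourth lower one was Cfa.16391.2.A1_at of HNRNPDL, a relative of HNRNPD, at -1.21 (SE 0.22, adjusted p = 8.23e-04), while the representative of HNRNPDL differed by -0.21 (SE 0.09, adjusted p = 0.0937 over probe sets) and the pair by -1.002 (adjusted p = 0.00104). The higher ones were Cfa.6643.1.A1_s_at of LSM12, a protein outside the snRNPs, at 1.18 (SE 0.22, adjusted p = 9.35e-04) and Cfa.6533.1.A1_at of SNRPE at 0.77 (SE 0.14, adjusted p = 8.77e-04). For both genes the representative differed by less, 0.44 for LSM12 and 0.29 for SNRPE, and the pairs were called at adjusted p values of 0.00207 and 0.00129.

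LSM14A, a protein of cytoplasmic mRNA granules, had 4 probe sets called higher, from 0.31 to 1.19, beside a representative at 0.05 (SE 0.10). SRSF5 had a representative at -0.51 and CfaAffx.25382.1.S1_s_at at -1.28 (SE 0.26, adjusted p = 0.00186), and their pair was called at an adjusted p of 0.0129. The representative passed over probe sets (adjusted p = 0.0489) but not over genes. HNRNPH3 and SRSF10 had a representative below 0 and other probe sets called higher, at 0.92 for HNRNPH3 and at 0.49 and 0.75 for SRSF10, all with called pairs of opposite sign.

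Each of the 4 lower SR genes had a single called probe set. In SRSF11 the other one differed by -0.26 (adjusted p = 0.0506 over probe sets) and in SRSF6 by -0.22 (adjusted p = 0.154), and both pairs were called (0.33 for each, adjusted p = 0.00315 and 0.0435). In SRSF2 the other differed by -0.02 (adjusted p = 0.936), and the pair was not called (adjusted p = 0.119). SRSF4 had 3 probe sets, of which Cfa.20306.1.S1_s_at differed by 0.07 (adjusted p = 0.761) and the pair was called (adjusted p = 0.00328). In SF3B2 the other 3 probe sets lay between 0.05 and 0.17, without a call, and 2 of the pairs were called. HNRNPD, SNRPD1 and SRSF7 also had called pairs of opposite sign, with no probe set called. In LSM7, 2 bright probe sets were higher, and the 2 that differed in sign were dim, with medians from 1.69 to 1.95. The other probe set of SNRPC differed by 0.04, and the pair was not called (adjusted p = 0.282). SNRPC lost its call as the mean of its probe sets and at the one of largest variance. In SNRPA1 the other probe set was dim and differed by 0.0035, and the pair was called (adjusted p = 0.0174).

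**Figure D4:**
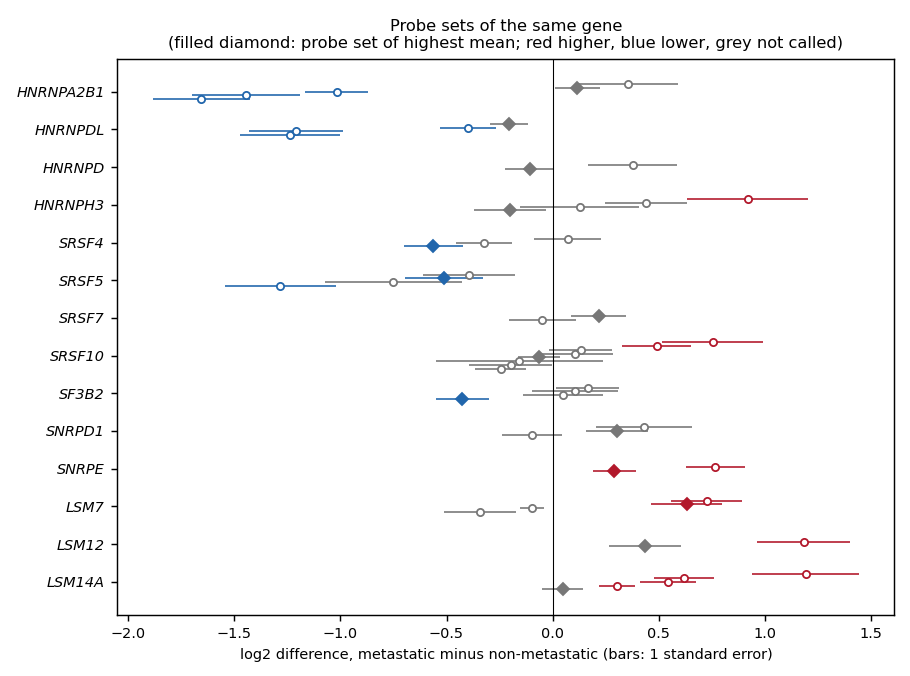
Log2 difference between metastatic and non-metastatic tumors for every probe set of 14 splicing genes (bars of 1 standard error; filled diamonds mark the probe set of highest mean that represents the gene; red higher, blue lower and grey not called over all probe sets). Probe sets of HNRNPA2B1 spread from -1.66 to 0.35 and those of LSM14A from 0.05 to 1.19.

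Other genes of splicing outside the 6 families were read from lists, of which 142 of 154 genes were measured. In them 26 were higher and 20 lower, or 18.3% and 14.1%, against 10.4% and 6.83% of all genes. Among all genes above the median brightness these shares were 18.7% and 6.62%, so the share of higher genes was close to that of bright genes. Of 26 genes of the U1, U5 and tri-snRNP particles 6 were higher, with PPIH at 0.86 and TXNL4A at 0.75, and 3 lower, among them SNRNP70, the third U1 protein, at -0.63 (adjusted p = 0.0206) beside the higher SNRPA and SNRPC. Of 13 genes of the branch site 3 were higher and 1 lower, and PHF5A, a further SF3B subunit, was higher by 0.57 (adjusted p = 0.00690). Of 27 genes of the PRP19 complex and catalytic steps 5 were higher, with PPIL1 at 1.37 and PRPF18 at 0.69, and 1 lower. Of 16 genes of the exon junction complex and mRNA export 7 were higher, with NXT1 at 1.00 and RBM8A at 0.69, and 1 lower. Of 13 genes of the SMN complex, which loads the Sm ring, and of Sm core assembly, 1 was higher (PRMT5, 0.48) and 1 lower (STRAP, -1.56).

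More regulators of splice site choice were lower than higher. Of 37 other regulators of alternative splicing 3 were higher, among them SYNCRIP, an hnRNP by function, at 0.73, and 9 were lower, among them SON at -0.54 and RBM25 at -0.87. Of 10 genes of SR protein kinases and nuclear importers 4 were lower, namely the kinases CLK1 at -0.59, CLK2 at -0.47, CLK4 at -0.55 and SRPK2 at -0.52. Only 1 was higher, the nuclear importer TNPO1 at 0.68. CLK and SRPK kinases phosphorylate the serine and arginine repeats of SR proteins. In 13 of 13 metastatic tumors CLK2 and CLK4 lay below the non-metastatic median. The lists were not compared with each other by a test.

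The splicing genes were also compared by grade and size at the same lymph node status. Between grade III and grade II 0 of the 61 genes and 0% of all genes passed with limma, and 0 of the 61 and 822 of all 15115 genes had an unadjusted p under 0.05. With non-metastatic tumor 1 as grade III 0 of the 61 passed as well, for grade and for its interaction with lymph node status. SRSF1 had the smallest p, with 0.21 (SE 0.11, adjusted p = 0.768) and group means of 11.9 and 12.0 in metastatic and 11.6 and 11.9 in non-metastatic tumors of grade II and III. The effect of lymph node status did not differ by grade for any gene after adjustment (0% of all genes), and 1 of the 61 and 394 of all genes had an unadjusted p under 0.05. That gene was LSM12, whose difference was lower by 0.82 in grade III (SE 0.31, adjusted p = 1.00). With tumor size LSMEM2 alone passed, at 0.04 per cm (SE 0.01, adjusted p = 0.0214), against 0.939% of all genes, but it was dim in every tumor and the call was lost under each of the 5 alternatives run.

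Covariates moved the counts more than single tumors did. With the GAPDH 3′ to 5′ difference as a covariate 5 genes were higher and 2 lower, and the upper quartile of the array, and age with size, gave the same counts. With the proliferation list 1 was higher and 1 lower (HNRNPC at 0.46, adjusted p = 0.0411, and SRSF11 at -0.71, adjusted p = 0.0134). With the smooth muscle list 1 was higher and 1 lower (SNRPC at 0.53, adjusted p = 0.0409, and SRSF6 at -0.77, adjusted p = 0.0475), and with the name ending as a block, which rests on metastatic tumors 1 and 2, 0 and 0. Over all 15115 genes the calls fell as well, from 1578 higher and 1033 lower to 516 and 279 with GAPDH. They were 440 and 408 with the upper quartile, and 464 and 170 with age and size. The proliferation list left 138 and 120, the smooth muscle list 146 and 201, and the block 10 and 0. Leaving out each tumor in turn gave 12 to 17 higher and 7 to 9 lower. The 3 lower probe sets of HNRNPA2B1 stayed apart from the representative, with called pairs, under every alternative run on pairs but the name ending. Pairs were not fitted with the proliferation or smooth muscle list as a covariate.

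**Figure D5:**
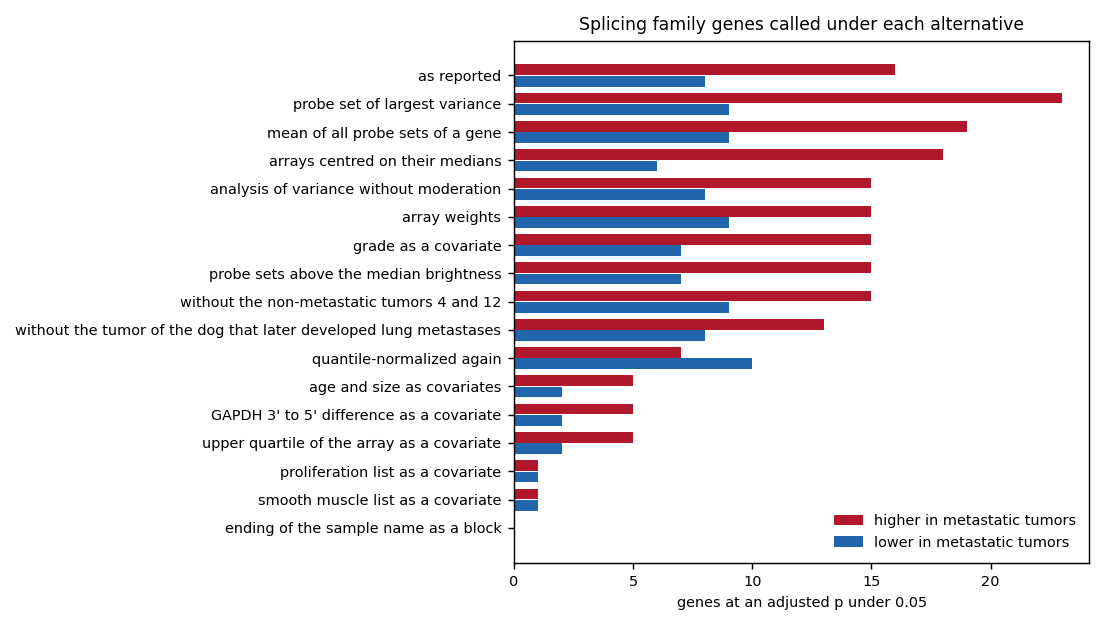
Number of splicing family genes at an adjusted p under 0.05, higher (red) or lower (blue) in metastatic tumors, as reported and under each alternative (counts of 61 genes, or of 56 where dim probe sets were left out). The counts fell from 16 and 8 to 5 and 2 with GAPDH, upper quartile or age and size as covariates, and to 0 with the name ending as a block. Calls over all genes fell under these covariates as well.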

How the data were processed

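Total RNA of 27 canine mammary carcinomas was hybridized to Affymetrix Canine Genome 2.0 arrays, 1 per tumor. The authors processed the arrays in Partek (GCRMA and RMA in the submitters' processing notes) with correction of the background, normalization by quantiles and a median polish summary. What they deposited are log2 signals, used here without further scaling. Groups came from the label of the affected lymph node. Of 43035 probe sets 175 controls were left out. Of the other 42860, the platform annotation gave 29254 the symbol of 1 gene, 439 several symbols and 13167 none. The probe set of highest mean over the 27 tumors stood for each of 15115 genes.

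Group differences were fitted with lmFit and eBayes of limma 3.58.1 (R 4.3.3, group as the only term) over all genes and over all probe sets, with Benjamini-Hochberg adjustment and a threshold of 0.05. The study's thresholds, 0.001 and a 1.7-fold change, were also applied to probe sets. The cut of 0.001 was on the Benjamini-Hochberg adjusted p here, and on q values from an analysis of variance in the study. Disagreement was tested with the same model on the difference within a tumor between the representative and each other probe set of a gene, over 14139 pairs. Grade III against grade II and tumor size were tested with lymph node status as a covariate, and their interaction with the group for grade. Differences in array measures were tested with 100000 permutations, two-sided. The number of arrays limits the precision, and the labels tie each array to 1 tumor.

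The genes named were, per family, up to 5 per direction of smallest adjusted p, the brightest gene not called, genes with called disagreement and opposite signs, and genes with a probe set past the study's thresholds, and, in each list of other splicing genes, some of up to 4 per direction. SNRPF, SNRPN, LSM1, LSM2, LSM6, LSM8, LSM14A, LSMEM1 and SRSF5 were named outside this rule, after their values were seen. The splicing families and all lists were chosen with earlier results of these data known. Alternatives covered the probe set per gene, scaling, dim probe sets, the test, array weights, covariates and single tumors. The tests were checked on simulated data. Figures used matplotlib 3.10.9 and Python 3.11.15. Sequences and positions of the probe sets were not analysed here.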

Additional observations from a re-analysis of the deposited data

How the results depend on the processing

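The direction of the called genes held under every scaling and test run, whereas the number of calls depended on covariates, among all genes too. As reported, 16 splicing family genes were higher and 8 lower, and 26 and 20 of the other splicing genes. With age and size as covariates these were 5 and 2, and 10 and 9. With the GAPDH 3′ to 5′ difference they were 5 and 2, and 11 and 8. With the upper quartile they were 5 and 2, and 8 and 10. With the proliferation list they were 1 and 1, and 1 and 7, and with the smooth muscle list 1 and 1, and 0 and 3. With the name ending as a block all were 0, on 2 metastatic tumors that share the ending of the non-metastatic ones. Quantile normalization of the values again left 7 higher, with 10 lower, and 13 of the other splicing genes higher.

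Of the probe sets, 38 were higher and 19 lower as reported, 16 and 8 with age and size, 13 and 9 with the upper quartile, 18 and 10 with GAPDH, 0 and 0 with the block, and 20 were higher after quantile normalization. The number past the study's thresholds, 6 as reported, was 0 with age and size, upper quartile, GAPDH or the block, 3 in the analysis of variance without moderation, 11 with array weights, 10 without the tumor of the dog that later developed lung metastases and 12 without non-metastatic tumors 4 and 12. Called disagreements, 36 as reported, were 17 with age and size, 17 with GAPDH, 16 with the upper quartile and 0 with the block. Over the pairs of all genes they fell from 3392 as reported to 1309 with GAPDH. GAPDH in the fits of probe sets and of disagreement, the removal of tumors 4 and 12, and the other grade of non-metastatic tumor 1 in the interaction were chosen after seeing the data. The size call of LSMEM2 fell to 0 under array weights, log2 diameter, the mean of probe sets, quantile normalization and without the tumor of 15 cm.

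Signs turned for some genes. HNRNPA2B1 was at -0.73 (adjusted p = 0.00192) as the mean of its probe sets and at -1.66 (adjusted p = 7.38e-05) at the one of largest variance, where HNRNPH3 was at 0.92 (adjusted p = 0.0239) and SF3B2 at 0.11. With the name ending as a block SF3B2 was at 0.10, SRSF2 at 0.11 and SNRPA at -0.017, and with the proliferation list SNRPA was at -0.0049. Under that block the called pairs also turned for Cfa.18141.1.S1_s_at (-0.25) and Cfa.3994.1.A1_s_at (-0.26) of SF3B2, Cfa.6238.1.A1_at of SNRPD1 (0.21), Cfa.8055.3.A1_s_at of SRSF10 (-0.30) and CfaAffx.14121.1.S1_s_at of HNRNPD (-0.25). The cause was not tested.

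Leaving out each tumor in turn gave 12 to 17 higher and 7 to 9 lower genes, 22 to 31 and 16 to 23 of the other splicing genes, 33 to 39 and 15 to 22 probe sets, 2 to 10 probe sets past the study's thresholds and 30 to 37 disagreements. SNRPC and SNRPE each lost their call without any of 20 single tumors, SRSF2 without 19, HNRNPAB without 14 and SNRPA without 10. LSM12 gained one without metastatic tumor 11 or non-metastatic tumor 2 or 8. No paired analysis was possible because each dog gave a single tumor, which was either metastatic or non-metastatic.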
